A study of Mus musculus with 6 samples.

Results

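Malat1, Neat1, Meg3, H19, Gas5, Snhg1, Snhg8 and Snhg12 are long noncoding RNAs that were followed here in mouse liver. They are 8 of the 54961 entries of a raw count table, taken by gene symbol because each is a well known nuclear, imprinted or small nucleolar RNA (snoRNA) host transcript. The choice was made with earlier results of these data known. The libraries came from wild-type male C57BL/6J mice that were 8 weeks old at the start. All mice received a high-fat diet (HFD) for 4 weeks and stayed on it for 4 more weeks. The HFD group had 3 mice on the diet alone (replicates 1 to 3). The HFD+allantoin group had 3 mice whose drinking water held allantoin, an oxidation product of uric acid, during the second period (replicates 4 to 6). The labels name 0.06 and 0.3 mg/mL without giving either to a library, and the study's description of its Allantoin-H group gives 0.3 mg/mL. Liver RNA was sequenced with 1 library per mouse, no batch, date or RNA integrity value is used here, and p-values measure the spread between these mice.

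Malat1 RNA collects in nuclear speckles, the bodies that hold splicing factors, and the long form of Neat1 RNA is the scaffold of paraspeckles. Gas5, Snhg1, Snhg8 and Snhg12 carry snoRNAs in their introns, and the spliced host RNA that remains is short-lived and, for several hosts, removed by nonsense-mediated decay. Meg3 and H19 are imprinted RNAs made from the maternal chromosome, abundant in fetal liver and low in adult hepatocytes.

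All 6 members that had enough counts for a test were lower in HFD+allantoin than in HFD livers. Neat1 had the lowest log2 fold change (-2.90) and Gas5 the one nearest 0 (-0.64), with Malat1, Snhg1, Snhg8 and Snhg12 between them. Meg3 and H19 were too low to enter the test. At an adjusted p under 0.05, 13.0% of the 12795 tested genes were lower and 11.3% were higher, with a median log2 fold change of -0.03 over all tested genes. The HFD and HFD+allantoin values did not overlap for any of the 6, and 21.9% of all tested genes were lower without overlap. The counts of the 6 were above the filter in all 6 libraries, so none of them entered the test through its HFD values alone.

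The long Malat1 and Neat1 transcripts are known to end in a triple helix, in which U-rich stretches pair with an A-rich tract in place of a long poly(A) tail. Their 3′ parts are shown because they mark what sets these nuclear RNAs apart from the other members. They were read from GENCODE M21 transcripts (GRCm38), from chr19:5795982-5796091 and chr19:5824708-5824817 on the minus strand, and are written as DNA. Capitals mark the U-rich stretches and the A-rich tract.
Malat1: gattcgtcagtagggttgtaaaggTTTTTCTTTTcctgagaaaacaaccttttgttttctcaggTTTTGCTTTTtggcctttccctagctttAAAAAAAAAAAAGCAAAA
Neat1: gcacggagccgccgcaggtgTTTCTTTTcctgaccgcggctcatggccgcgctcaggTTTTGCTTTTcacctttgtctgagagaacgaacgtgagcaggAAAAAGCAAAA
The A-rich letters AAAAAGCAAAA, searched on the transcript strand, occur in transcripts of 376 of 55450 annotated genes (0.678%). Together with TTTCTTTT and TTTTGCTTTT in a 110-base window they occur in 2 genes (0.00361%), which are Malat1 and Neat1. The searched letters were read from these 2 transcripts, so their presence in both was fixed in advance. The Malat1 window lies 292 bases before the annotated end, and the Neat1 window is the end of the 20771-base transcript. Neat1 also has a 3004-base form, which ends after an ordinary polyadenylation signal, shown here in capitals.
Neat1 short form, last 30 bases: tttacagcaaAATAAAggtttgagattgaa
The count table gives 1 value per gene, so the short and the long Neat1 form cannot be told apart.

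The hosts differ from Malat1 and Neat1 in what lies inside them. Of 38 annotated genes that overlap the 8 members, 24 are snoRNA genes, with 10 in Gas5, 8 in Snhg1, 5 in Snhg12 and 1 in Snhg8. An example of each kind is shown from GRCm38. Snord47 lies in Gas5 at chr1:161038082-161038158 (plus strand) and Snord99 in Snhg12 at chr4:132310691-132310764 (plus strand), and capitals mark the C and D boxes of both. Snora24 lies in Snhg8 at chr3:123507937-123508066 (minus strand), and capitals mark its H and ACA boxes.
Snord47: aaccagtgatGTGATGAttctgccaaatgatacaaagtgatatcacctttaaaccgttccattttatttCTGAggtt
Snord99: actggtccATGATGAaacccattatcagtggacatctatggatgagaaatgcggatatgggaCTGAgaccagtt
Snora24: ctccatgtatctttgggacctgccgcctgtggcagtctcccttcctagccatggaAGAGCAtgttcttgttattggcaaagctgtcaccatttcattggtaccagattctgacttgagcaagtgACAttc
The C and D boxes, searched on the RNA strand as NTGATGA and CTGA near the ends, are held by 20.6% of 1507 annotated snoRNA transcripts, and the H and ACA boxes (ANANNA and ACA) by 37.4%. All 24 snoRNA genes inside the hosts stood at 0 counts in all 6 libraries. Over all entries, 1379 of 1507 snoRNA genes were at 0 counts throughout. The joined annotated exons of Snhg1, Snhg8 and Snhg12 cover the whole gene, and those of Gas5 cover 3760 of 4118 bases, so the snoRNAs can lie within counted host exon. Whether snoRNA reads were counted for the hosts or dropped was not tested.

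Many snoRNA host RNAs start with a run of pyrimidines, as the mRNAs of ribosomal proteins do. The starts of the 4 hosts and of Malat1 are shown from the RefSeq promoter table (GRCm38.p6), with 30 bases before and 30 after the annotated start. Capitals mark the longest run of C and T that begins within 12 bases of the start. The windows are chr1:161035136-161035195 (plus), chr19:8723457-8723516 (plus), chr3:123508307-123508366 (minus), chr4:132308648-132308707 (plus) and chr19:5802643-5802702 (minus).
Gas5: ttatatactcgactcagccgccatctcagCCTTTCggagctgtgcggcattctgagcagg
Snhg1: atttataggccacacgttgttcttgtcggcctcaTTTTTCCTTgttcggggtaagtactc
Snhg8: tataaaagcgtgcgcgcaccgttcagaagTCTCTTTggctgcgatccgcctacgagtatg
Snhg12: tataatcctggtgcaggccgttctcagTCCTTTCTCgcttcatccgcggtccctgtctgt
Malat1: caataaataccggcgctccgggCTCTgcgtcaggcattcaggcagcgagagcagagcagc
The runs were 6 bases in Gas5, 7 in Snhg8 and 9 in both Snhg1 and Snhg12, against 4 in Malat1 and a median of 4 over 32851 promoters. Runs at least as long were found in 26.7%, 16.8% and 7.1% of all promoters for 6, 7 and 9 bases. Table entries were found for 6 members, and Gas5 has a second one with a run of 3 bases. Neat1 and H19 have no entry.

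Neat1 (ENSMUSG00000092274, chr19:5824708-5845478, minus strand, lincRNA) had 5287, 2604 and 5218 counts in HFD replicates 1 to 3 and 690, 1090 and 819 counts in HFD+allantoin replicates 4 to 6. Normalized to CPM (counts scaled to a common library size by TMM), these were 577, 257 and 436 CPM in HFD and 50.6, 64.5 and 55.3 CPM in HFD+allantoin livers. The lowest HFD library, replicate 2, was still well above the highest HFD+allantoin library, and the spread was larger among the HFD mice, with a coefficient of variation of 37.9% against 12.4%. Neat1 fell by 2.90 on the log2 scale (SE 0.29, 95% interval -3.56 to -2.24, adjusted p = 0.00180). In linear terms HFD livers held 7.46 times the HFD+allantoin level (95% interval 4.71 to 11.8). Its log2 fold change ranked 68 from the lowest of the 12795 tested genes and 14 of 507 tested lncRNA genes.

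Malat1 (ENSMUSG00000092341, chr19:5795690-5802672, minus strand, lincRNA) had 2711, 1882 and 2341 counts in HFD and 1200, 1539 and 1482 counts in HFD+allantoin libraries. Its levels were 296, 186 and 196 CPM in HFD and 88.0, 91.0 and 100.03 CPM in HFD+allantoin livers. The 3 HFD+allantoin libraries were close together, HFD replicate 1 stood above the other HFD libraries, and the groups did not overlap. Malat1 fell by 1.28 on the log2 scale (SE 0.21, 95% interval -1.75 to -0.81, adjusted p = 0.00506), so that the HFD level was 2.43 times the HFD+allantoin level.

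Neat1 and Malat1, neighbours on the chromosome, were also compared with each other. The ratio of Neat1 to Malat1 counts, which no library scaling can change, was 1.95, 1.38 and 2.23 in the HFD libraries and 0.575, 0.708 and 0.553 in the HFD+allantoin libraries. Neat1 counts exceeded Malat1 counts in all 3 HFD libraries and in no HFD+allantoin library. The mean log2 ratio differed by -1.58, with an exact two-sided permutation p of 0.1, the smallest that 3 against 3 mice allow (0.167 adjusted over the 5 ratios tested between members). Malat1 and Neat1 together took 0.0659%, 0.0397% and 0.0600% of HFD counts and 0.0165%, 0.0181% and 0.0173% of HFD+allantoin counts.

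**Figure D1:**
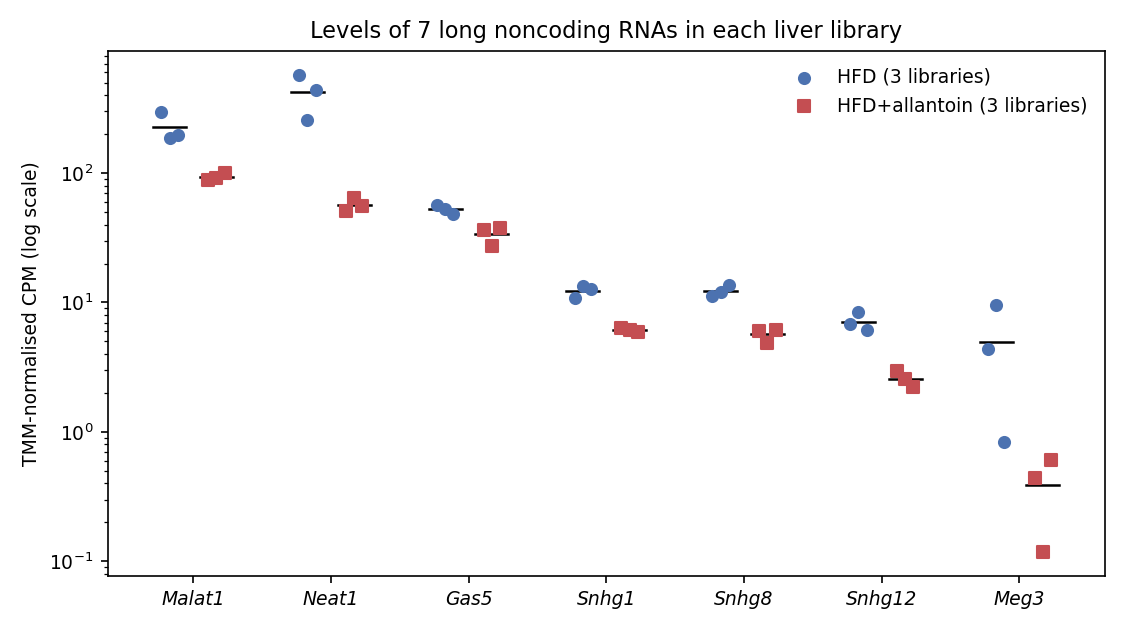
TMM-normalized CPM (log axis) of 7 members in each of the 6 libraries, with HFD as blue circles, HFD+allantoin as red squares and horizontal lines at the group means. H19, which was at 0 counts in a library of each group, is not drawn. The groups are separate for the 6 tested members, and 21.9% of all tested genes were lower without overlap. Meg3, which was not tested, shows the widest scatter among HFD mice, from 0.836 to 9.58 CPM. Its lowest HFD library held 10 counts, against 9 in HFD+allantoin replicate 6, so the 2 groups nearly meet.

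Gas5 (growth arrest specific 5, ENSMUSG00000053332, chr1:161034422-161038539, plus strand) holds C/D box snoRNAs and rises when growth or translation is blocked. It had 521, 536 and 577 counts in HFD and 492, 459 and 561 counts in HFD+allantoin libraries. After TMM scaling these were 56.9, 52.9 and 48.2 CPM against 36.1, 27.2 and 37.9 CPM, without overlap. Scaled by total counts alone the groups overlapped, with 42.9, 47.4 and 45.8 against 43.0, 31.5 and 42.2 CPM. With TMM factors Gas5 fell by 0.64 on the log2 scale (SE 0.18, 95% interval -1.05 to -0.24, adjusted p = 0.0297). With library totals only it was -0.22 (adjusted p = 0.416), after correction for transcript length and GC within libraries it was -0.48 (adjusted p = 0.0797), and the call was also lost without HFD replicate 1 or 2 or without any of the HFD+allantoin replicates, where it lay between -0.73 and -0.50. The annotated 5′ end of Gas5 overlaps Zbtb37 on the opposite strand, a gene with counts of its own (log2 fold change -1.36, adjusted p = 0.0880), and the strand setting of the counting is not given.

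Snhg1 (ENSMUSG00000108414, chr19:8723475-8726443, plus strand) hosts a series of C/D box snoRNAs. It had 99, 137 and 153 counts in HFD and 86, 104 and 87 counts in HFD+allantoin libraries. These corresponded to 10.8, 13.5 and 12.8 CPM against 6.30, 6.15 and 5.87 CPM. The 3 HFD+allantoin libraries lay within a narrow band below all HFD libraries, and Snhg1 fell by 1.02 on the log2 scale (SE 0.20, adjusted p = 0.00972).

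Snhg8 (ENSMUSG00000104960, chr3:123507552-123508404, minus strand), which hosts the H/ACA snoRNA shown above, had 103, 121 and 163 counts in HFD and 82, 82 and 91 counts in HFD+allantoin libraries. Its levels were 11.2, 11.95 and 13.6 CPM against 6.01, 4.85 and 6.14 CPM. Replicate 5 was the lowest HFD+allantoin library, as it was for Gas5, and on the TMM scale no HFD library came near this group. Scaled by total counts alone the groups were closer, with 8.48 CPM in HFD replicate 1 and 7.16 CPM in HFD+allantoin replicate 4. Snhg8 fell by 1.12 on the log2 scale (SE 0.22, adjusted p = 0.00864).

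Snhg12 (ENSMUSG00000086290, chr4:132308623-132311024, plus strand) had 62, 85 and 73 counts in HFD and 40, 43 and 33 counts in HFD+allantoin libraries. Its levels were 6.77, 8.39 and 6.10 CPM against 2.93, 2.54 and 2.23 CPM. The groups did not overlap, and Snhg12 fell by 1.46 on the log2 scale (SE 0.29, adjusted p = 0.00900), the lowest value of the 4 hosts. The ratio of Snhg12 to Snhg1 counts was 0.477 to 0.626 in HFD and 0.379 to 0.465 in HFD+allantoin libraries (exact permutation p = 0.1). The ratios of Snhg8 to Snhg1 (exact p = 0.6) and of Snhg1 to Gas5 (exact p = 0.2) overlapped between groups.

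The 4 host calls did not pass the threshold without HFD+allantoin replicate 5, while 3 of the 4 log2 fold changes moved little. They were then -0.50 for Gas5, -1.02 for Snhg1, -1.01 for Snhg8 and -1.45 for Snhg12, and the adjusted p values were 0.133, 0.0525, 0.0523 and 0.0507. In that smaller comparison, 564 genes in the whole table were lower and 460 higher, against 1666 and 1446 with all libraries. Malat1 and Neat1 stayed past the threshold without any single library and in each of the 16 alternative analyses, with log2 fold changes of -1.45 to -0.84 for Malat1 and -3.16 to -2.46 for Neat1. With library totals only, Snhg1 was at -0.61 (adjusted p = 0.0822) and Snhg8 at -0.71 (adjusted p = 0.0549). Under all 16 alternatives the log2 fold changes of the 6 members were below 0.

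**Figure D2:**
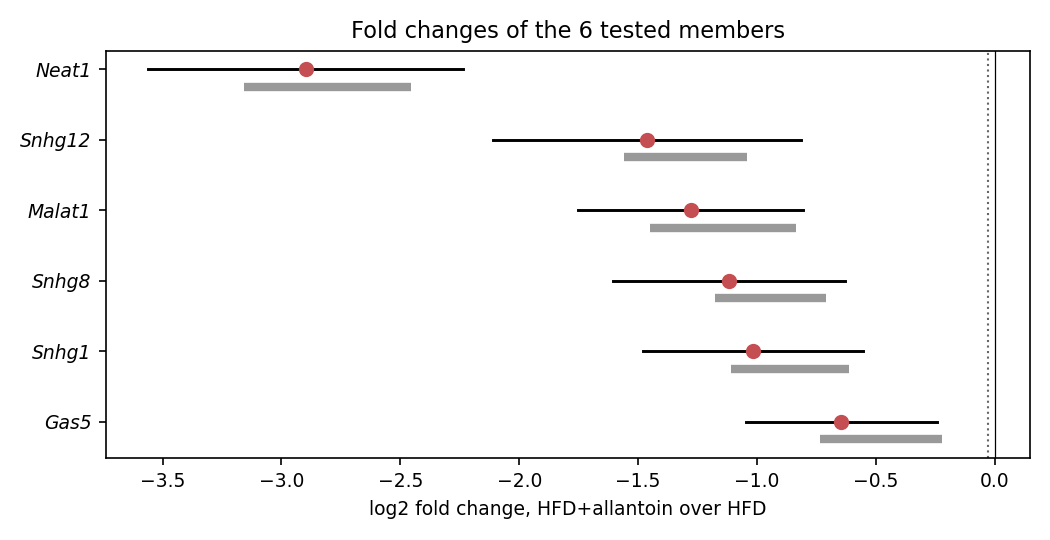
Log2 fold change of the 6 tested members, HFD+allantoin over HFD. Red points and black lines give the edgeR estimate and its 95% interval, grey bars the range over the 16 alternative analyses, the dotted line the median of all tested genes (-0.03) and the solid vertical line no difference. Neat1 lies at -2.90, apart from the other members, and the grey bar of Gas5 reaches -0.22.

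Meg3 (ENSMUSG00000021268, chr12:109541001-109571726, plus strand) had 40, 97 and 10 counts in HFD and 6, 2 and 9 counts in HFD+allantoin libraries. These were 4.37, 9.58 and 0.836 CPM in HFD and 0.440, 0.118 and 0.607 CPM in HFD+allantoin livers. HFD replicates 1 and 2 were high, HFD replicate 3 was just above the highest HFD+allantoin library, and the exact permutation p was 0.1, the smallest possible. Without the filter on low counts the edgeR log2 fold change was -3.61 (adjusted p = 2.49e-09). Leaving out HFD replicate 2 as well gave -2.66 (adjusted p = 0.00194). With all libraries and no filter, adjusted p was also far smaller for Neat1 (8.01e-32, against 0.00180 with the filter) and Malat1 (6.09e-07, against 0.00506). For Gas5 it was not smaller (0.0325, against 0.0297). The unfiltered Meg3 values thus cannot be ranked beside the filtered values of the other members. With the filter, Meg3 entered the test only with the mitochondrial chromosome left out and in some of the comparisons with fewer libraries. It did so through its counts in HFD livers, the group where it is high, so those values are not given. In these fits Meg3 was called lower with the mitochondrial chromosome left out and without HFD replicate 3. It was not called without HFD+allantoin replicate 4, 5 or 6. No conclusion is drawn from these calls, because the filter let Meg3 in through the group where it is high.

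HFD replicate 2 also held fat tissue transcripts. Adipoq, the adipocyte hormone adiponectin, had 520 counts there and at most 1 in any other library, and Plin1, the lipid droplet coat protein of adipocytes, had 498 counts there and at most 1 elsewhere. The 5 adipose markers summed to 60.2 to 254 CPM in HFD and 35.7 to 82.2 CPM in HFD+allantoin libraries, 1 of them entered the test and it was not called. Dlk1, the imprinted protein gene next to Meg3, had 149 counts in HFD replicate 2 and 0 in the other HFD libraries. Rian, the next noncoding RNA of that cluster, followed Meg3, with 17, 57 and 3 counts in HFD and 4, 2 and 6 in HFD+allantoin libraries. Mirg, at its far end, had 14, 5 and 0 counts in HFD and 0, 1 and 0 in HFD+allantoin libraries. Meg3 counts were above those of every HFD+allantoin library in HFD replicate 1 too, which held no Adipoq, Plin1 or Dlk1 counts. The part of fat tissue in the Meg3 values of HFD replicate 2 was not tested. Without that library Neat1 was at -3.16, Malat1 at -1.40, Snhg1 at -0.95, Snhg8 at -1.14 and Snhg12 at -1.32, all called lower, while Gas5 was at -0.64 (adjusted p = 0.0572).

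H19 (ENSMUSG00000000031, chr7:142575529-142578143, minus strand), the maternal partner of Igf2, was near the floor in both groups. It had 0, 1 and 2 counts in HFD and 3, 0 and 8 counts in HFD+allantoin libraries. A floor of 3 counts corresponds to 0.177 to 0.328 CPM per library, counting error only, and HFD+allantoin replicate 6 alone was above it, so no fold change is given. The exact permutation p was 0.5, and without the filter edgeR gave an adjusted p of 0.617. Igf2 and Dio3, the paternal genes of the H19 and Meg3 clusters, stood at 0 counts in all 6 libraries. Of 10 tested imprinted genes, Slc38a4, a system A amino acid transporter (log2 fold change 0.75), and Gnas (0.79) were higher, and Peg3 (-1.52) was lower. The higher count was 1 without HFD replicate 1 or 3 or HFD+allantoin replicate 6 and 0 without HFD+allantoin replicate 4 or 5, and the lower count was 1 throughout.

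Levels can be compared between members only per length. Per kilobase of annotated exon, the order in HFD livers was Malat1 (32.3 ± 8.7 CPM per kb, SD, n = 3), Neat1 (20.4 ± 7.7), Snhg8 (14.4 ± 1.4), Gas5 (14.0 ± 1.2), Snhg1 (4.17 ± 0.47), Snhg12 (2.95 ± 0.49), Meg3 (0.272 ± 0.24) and H19 (0.0360 ± 0.034). The ranges of Malat1 and Neat1 overlapped, as did those of Neat1, Snhg8 and Gas5, so that their order is not fixed by these libraries. In HFD+allantoin livers it was Malat1 (13.3 ± 0.90 CPM per kb), Gas5 (8.96 ± 1.5), Snhg8 (6.64 ± 0.83), Neat1 (2.73 ± 0.34), Snhg1 (2.06 ± 0.074), Snhg12 (1.07 ± 0.15), H19 (0.103 ± 0.11) and Meg3 (0.0215 ± 0.014). By mean per kilobase of annotated exon, Neat1 stood next to Malat1 in HFD livers, with a range that overlapped those of Snhg8 and Gas5. In HFD+allantoin livers it stood behind Gas5 and Snhg8. Per kilobase of mean transcript length Gas5 moved to second place in HFD and to first in HFD+allantoin livers, since its 25 annotated transcripts average 741 bases against 3760 bases of joined exon.

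As an indirect read of nuclear RNA, the members and all lncRNA genes were set against the rest of each library. Nuclear RNA itself was not measured. All annotated lncRNA genes together took 0.440% to 0.488% of HFD counts and 0.325% to 0.399% of HFD+allantoin counts. The 8 members made up 14.9%, 10.98% and 15.2% of this in HFD and 5.70%, 6.22% and 7.15% in HFD+allantoin libraries, without overlap. Of the 501 other tested lncRNA genes 95 were lower and 12 higher (median log2 fold change -0.59), while of 11717 protein-coding genes 1439 were lower and 1388 higher (median -0.002). With 1 library left out, 559 to 611 other lncRNA genes were tested. The count was 31 lower and 1 higher without HFD+allantoin replicate 5, 47 and 4 without replicate 4 and 43 and 3 without replicate 6. It was 68 and 6 without HFD replicate 1, 98 and 9 without HFD replicate 2 and 152 and 16 without HFD replicate 3. With library totals only, 61 of the same 501 lncRNA genes were lower and 24 higher (median -0.16), beside 526 lower and 3046 higher protein-coding genes (median 0.41). Genes that pass the filter only through the group where they are high are among these counts.

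The HFD libraries also held more mitochondrial RNA. Transcripts of the mitochondrial chromosome took 36.5%, 20.2% and 17.9% of HFD counts and 7.52%, 6.92% and 11.4% of HFD+allantoin counts, and all 30 tested mitochondrial genes were lower (median log2 fold change -2.05). TMM factors were 0.756 to 0.951 in HFD and 1.12 to 1.19 in HFD+allantoin libraries, and library totals only would move the median of all tested genes from -0.03 to 0.38. In CPM taken over the counts of the other chromosomes only, Neat1 was at 289 to 685 in HFD and 65.2 to 80.4 in HFD+allantoin libraries, and Malat1 at 209 to 352 and 113 to 126. Gas5 was at 55.8 to 67.6 and 33.9 to 47.6 on that scale. The groups of all 6 tested members were also separate on that scale. On the TMM scale 21.9% of all tested genes were lower without overlap, and that share was not taken with the mitochondrial counts left out. The part of the mitochondrial share in the members' values was not tested.

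**Figure D3:**
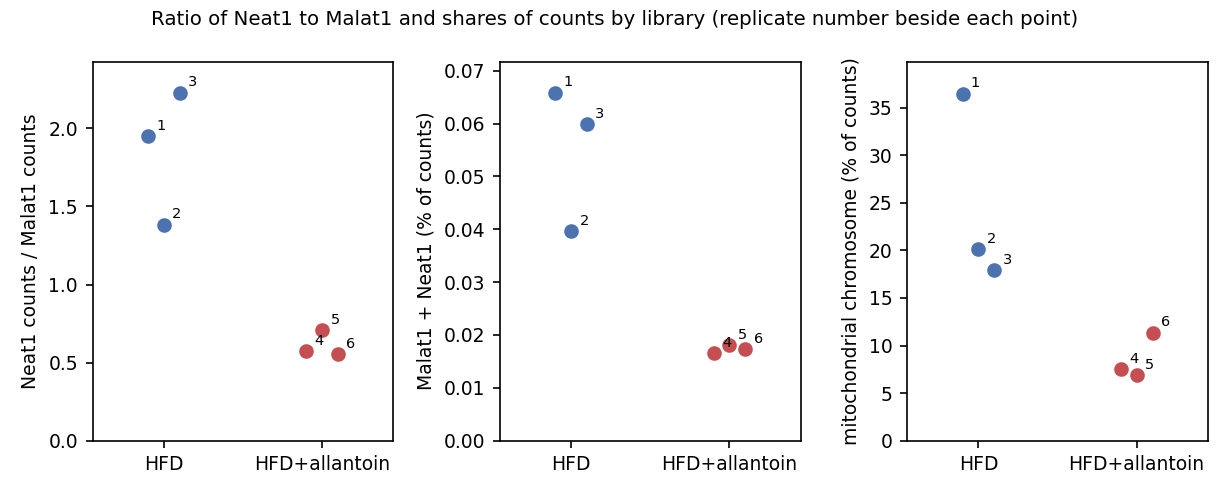
Ratio of Neat1 to Malat1 counts (left), share of counts in Malat1 and Neat1 together (middle, %) and share of counts on the mitochondrial chromosome (right, %), with 1 point per library and its replicate number. HFD and HFD+allantoin libraries are separate in all 3 panels, and HFD replicate 2 is lowest of its group in the left and middle panels.

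Cell type markers were read beside these values. Hepatocyte markers were abundant in every library, with a sum of 88486 to 90203 CPM in HFD and 73062 to 102503 CPM in HFD+allantoin livers. Of 8 tested hepatocyte markers 2 were higher and 3 lower, and with HFD replicate 1 or 2, or any HFD+allantoin replicate, left out none was higher. Of 8 tested stellate cell markers 5 were higher, with a sum of 188 to 312 CPM in HFD and 410 to 488 CPM in HFD+allantoin livers, also without any single library. Of 7 macrophage markers 3 were higher, with sums of 106 to 255 and 300.3 to 339 CPM. Leaving out HFD replicate 2 made it 5, and leaving out HFD+allantoin replicate 5 or 6 made it 1. Of 8 sinusoidal endothelial markers 1, the scavenger receptor Stab1 (log2 fold change -0.94), was lower, with sums of 109 to 190 and 150 to 226 CPM. Without HFD+allantoin replicate 5 or 6 none was lower, and 3 were higher without HFD replicate 2 and 1 without HFD replicate 3. Of 3 tested cholangiocyte markers 1, the transcription factor Sox9, was lower (-3.17, adjusted p = 0.00735), with sums over all 6 listed of 34.4 to 160 and 22.01 to 76.7 CPM. Lymphocyte markers had 3 tested and 0 called (median -1.67, sums over 6 of 5.02 to 7.64 and 2.16 to 4.33 CPM), or 1 lower without HFD replicate 3. Neutrophil markers had 2 tested and 0 called (median -1.29, sums over 5 of 7.51 to 10.5 and 1.89 to 5.53 CPM), or 1 lower without HFD+allantoin replicate 6. The sums of both lists were lower in HFD+allantoin libraries without overlap. None of these markers was at 0 throughout. In bulk tissue, fewer cells of a type and less RNA per cell cannot be told apart, and the part of cell composition in the members' values was not tested.

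Other nuclear lncRNAs were read beside Malat1 and Neat1. Of 8 tested, Firre, which anchors chromatin at the nuclear matrix (log2 fold change -2.25, adjusted p = 0.00389), and Ftx, from the X inactivation center (-1.60, adjusted p = 0.0310), fell, none rose, and all 8 were below 0 (median -1.06). The count was 1 lower without HFD replicate 1 or any HFD+allantoin replicate, 4 without HFD replicate 2 and 5 without HFD replicate 3. Kcnq1ot1, the imprinted antisense RNA of Kcnq1, was at -2.24 (adjusted p = 0.0588). Tug1 was at -0.37 (adjusted p = 0.164). Of 4 mRNAs known to be held in hepatocyte nuclei, 3 were lower (median -1.35), or 2 without any of the HFD+allantoin replicates and 4 without HFD replicate 3. These were Mlxipl, the glucose-responsive transcription factor ChREBP (-1.95, adjusted p = 0.00513), Nlrp6 (-1.79, adjusted p = 0.00490) and the glucagon receptor Gcgr (-0.91, adjusted p = 0.0221).

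Genes for nuclear speckle proteins, the bodies in which Malat1 collects, were lower in 9 of 16 tested cases and higher in 0 (median log2 fold change -0.69). Clk1 (-1.73, adjusted p = 0.00317) and Clk4 (-1.71, adjusted p = 0.00406), kinases that phosphorylate SR proteins, fell. The SR splicing factors Srsf7 (-1.13, adjusted p = 0.0112) and Srsf2 (-0.72, adjusted p = 0.0216), the U1-associated Luc7l3 (-1.25, adjusted p = 0.00321) and Son, a speckle core protein (-0.66, adjusted p = 0.0472), also fell. Srrm2, the other core protein, was at -0.44 (adjusted p = 0.222). The count was 4 without HFD+allantoin replicate 5.

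Paraspeckle protein genes, whose products assemble on Neat1, went both ways. Of 16 tested, 5 were lower and 1 higher (median log2 fold change -0.34, and 0.07 with library totals only). Ewsr1 (-1.20, adjusted p = 0.00396) and Tardbp, which encodes TDP-43 (-0.64, adjusted p = 0.0207), fell, as did Hnrnph3 (-1.01) and Dazap1 (-0.86). Of the core proteins that bind Neat1, Nono rose (0.58, adjusted p = 0.0276), while Sfpq was at -0.68 (adjusted p = 0.0827) and Pspc1 at 0.31 (adjusted p = 0.581). The lower count was 2 without HFD+allantoin replicate 4 and 1 without replicate 5 or 6, and Nono was not called without any of the HFD+allantoin replicates or without HFD replicate 2.

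**Figure D4:**
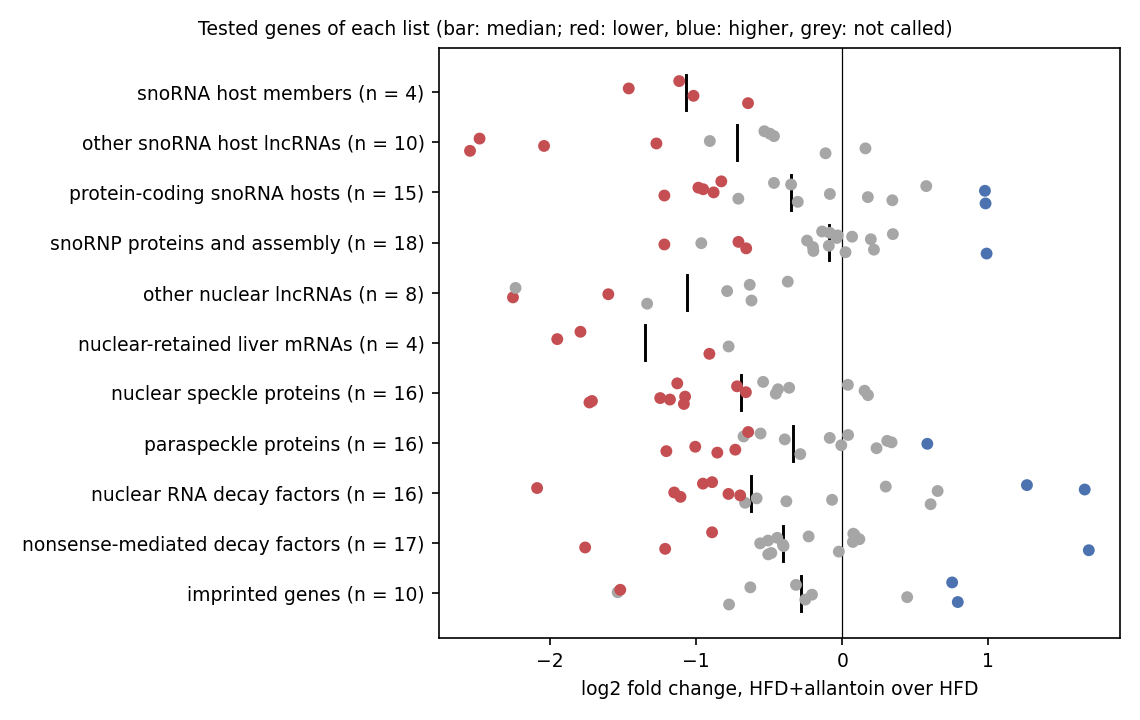
Log2 fold change, HFD+allantoin over HFD, of each tested gene in the 4 snoRNA host members and in 10 lists of related genes, with red for genes called lower, blue for genes called higher, grey for genes not called and a vertical bar at each list's median. All 8 other nuclear lncRNAs lie left of 0, whereas the protein lists spread to both sides. Of the 501 tested lncRNA genes other than the members, most of them not drawn, 385 were below 0.

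The other snoRNA host lncRNAs were lower in 4 of 10 tested cases, and none was higher (median log2 fold change -0.72). Snhg11 (-2.55, adjusted p = 0.00659), Snhg20 (-2.48, adjusted p = 0.00348), Snhg15 (-2.04, adjusted p = 0.0240) and Snhg17 (-1.27, adjusted p = 0.0364) fell. Zfas1 was at -0.53 (adjusted p = 0.159) and Snhg6 at -0.50 (adjusted p = 0.248). The count was 2 without any of the HFD+allantoin replicates. Snhg3 and Snhg9 were at 0 counts in all 6 libraries.

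Protein-coding genes that host snoRNAs went both ways. Of 15 tested, 5 were lower and 2 higher (median log2 fold change -0.35, and 0.06 with library totals only). The ribosomal protein genes Rpl13a (-0.88, adjusted p = 0.00843) and Rpl7a (-0.95, adjusted p = 0.0349) fell, as did Tpt1 (-0.83, adjusted p = 0.0110) and the C/D box protein gene Nop56 (-1.22, adjusted p = 0.00638). Rpl3 (0.98, adjusted p = 0.0151) and the elongation factor Eef2 (0.98, adjusted p = 0.0223) rose. Without HFD+allantoin replicate 5 there were 3 lower and 1 higher, and without replicate 4 there were 4 lower and 0 higher.

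Genes for the proteins that bind snoRNAs were called about as often as all tested genes. Of the list 16.7% were lower and 5.56% higher, beside 13.0% and 11.3% of all tested genes. Of 18 tested genes for snoRNA proteins and their assembly factors, Nop56, Nhp2 (log2 fold change -0.66, adjusted p = 0.0217) and Nufip1 (-0.71, adjusted p = 0.0413) were lower. Dkc1, the pseudouridine synthase dyskerin, was higher (0.99, adjusted p = 0.0163). The list median was -0.09, and 0.32 with library totals only, and without HFD+allantoin replicate 4 or 5 there were 1 lower and 0 higher and without HFD replicate 3 2 lower and 2 higher.

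The decay machinery for these RNAs was read in the same way. Of 17 tested factors of nonsense-mediated decay, Gspt1, the release factor eRF3a, rose (log2 fold change 1.69, adjusted p = 0.00153). The exon junction genes Magoh (-1.21, adjusted p = 0.00462) and Upf3b (-0.89, adjusted p = 0.0155) fell. Magohb had 16, 10 and 37 counts in HFD and 8, 11 and 7 in HFD+allantoin libraries. It entered the test through its HFD counts, the group where it is high, so its fold change is not given. The lower count, 3 with Magohb, was 1 without any of the HFD+allantoin replicates and 6 without HFD replicate 2. Of 16 tested factors of nuclear RNA decay, the exosome helicase Mtrex (1.66, adjusted p = 0.00365) and the nuclear exonuclease Xrn2 (1.27, adjusted p = 0.00442) rose. The exosome subunits Exosc4 (-1.11, adjusted p = 0.00396), Exosc7 (-0.78), Exosc8 (-1.15) and Exosc5 (-0.70) fell, as did Zcchc8 (-0.95), Zfc3h1 (-0.89) and the nuclear poly(A) binding protein Pabpn1 (-2.09, adjusted p = 0.00672). That lower count of 7 was 2 without HFD+allantoin replicate 4 or 5 and 4 without replicate 6.

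Malat1 and Neat1 lie 22035 bases apart on the same strand of chromosome 19. Of the 11 other tested genes within 100 kb of the pair, 3 were lower and 0 higher, with a median log2 fold change of -0.47. The nearest tested gene, Frmd8, at 4224 bases, was at -0.10 (SE 0.17, adjusted p = 0.697). The 3 lower genes were Slc25a45 (-0.93, SE 0.18, adjusted p = 0.00849), Sssca1 (-1.09, SE 0.27, adjusted p = 0.0221) and Gm42067 (-1.496, SE 0.46, adjusted p = 0.0442), and Dpf2, Map3k11 and Cdc42ep2 lay between -0.06 and 0.004. Slc3a2, which starts 106 bases from Snhg1 on the opposite strand, was at -0.25 (adjusted p = 0.373). Nxf1, the mRNA export receptor 30630 bases from Snhg1, fell by 1.35 (SE 0.17, adjusted p = 0.00292). Trnau1ap, 739 bases from Snhg12, was at 0.17 (adjusted p = 0.503).

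**Figure D5:**
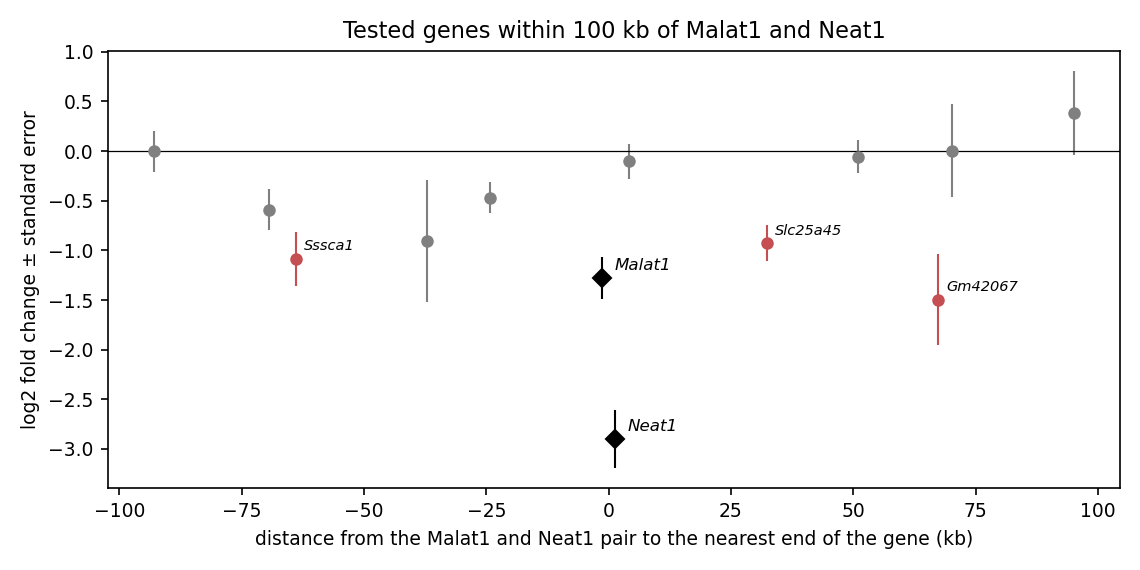
Log2 fold change with its standard error of the tested genes within 100 kb of Malat1 and Neat1, against the distance in kb from the pair to the nearest end of each gene, negative on the Malat1 side. Malat1 and Neat1 are black diamonds drawn side by side at 0 kb, red circles were called lower and are named, and grey circles were not called. Both RNAs lie below all neighbours except Gm42067, which is below Malat1.

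The genes most like each member across the 6 libraries were found by Pearson's r of log2 CPM over 6931 genes averaging 10 CPM or more (predicted genes and pseudogenes left out), where the difference between the 2 groups is shared by every point. Malat1 was followed most closely by Gramd1c, the SR protein gene Srsf6 and Clasrp (all r = 0.999), and Neat1 by Khdc4 (0.997), the RNA helicase gene Ddx39b (0.996) and Emsy (0.996). Gas5 was followed by Gstp3 (0.992), Nek6 (0.989) and Hacd2 (0.987), and Snhg1 by Lurap1l (0.996), Uqcrfs1 (0.995) and Taf13 (0.995). Snhg8 was followed by Pim3 (0.999), Polr2l (0.996) and Mreg (0.995), and Snhg12 by the mitochondrial protein genes Mrpl36 (0.998), Prdx5 (0.997) and Cox5b (0.997). Among the members themselves r ran from 0.845 between Gas5 and Snhg1 to 0.978 between Malat1 and Neat1.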

How the data were processed

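The authors filtered Illumina reads from 6 liver libraries and deposited whole-number counts per gene, not normalized. The aligner, the counting tool and its strand setting are not given in the sources used here, and the submitters' processing notes name GRCm38 and mm10. Totals were 11326372 to 14601457 counts per library. Of 54961 entries, 429 without an Ensembl identifier (0.197% to 0.306% of counts) were left out, and symbols and positions were taken from GENCODE M21, which held 54409 of the 54532 identifiers. HFD+allantoin was compared with HFD by the quasi-likelihood test of edgeR 4.0.16 in R 4.3.3, with TMM factors, filterByExpr, and Benjamini-Hochberg adjustment over 12795 genes. Values per member ratio were tested by exact two-sided permutation. Log2 values used for likeness had a prior count of 2. All 8 members were named. Of each related list at most 5 called genes by smallest p, otherwise the most abundant, were to be named, and further genes named beside them were chosen after their values were seen. Members and lists were chosen with earlier results of these data known. The 4 list symbols Norad, Snhg4, Snhg7 and Snhg16 found no match. Malat1 and Meg3 share 453 and 805 near-identical bases with Gm37376 and Gm26906, both at 0 counts. DESeq2 1.42.0, limma-voom (limma 3.58.1) and other normalizations, filters and left-out libraries were tried as alternatives. The procedure was tested on simulated data. Some genes of the lists and neighbourhoods are counted but not reported here by name.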

Additional observations from a re-analysis of the deposited data

How the results depend on the processing

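Under 16 alternatives for each of the 6 tested members, no log2 fold change reversed, and Malat1 and Neat1 stayed past the threshold in all of them. With library totals only, Gas5 was -0.22, Snhg1 -0.61 and Snhg8 -0.71 and none of these was called, 3 members were called lower, 3162 genes were higher and 674 lower, and 14 and 19 genes of the related lists were higher and lower. Here the mitochondrial share enters the scale of every gene. With each library's trend in length and GC content removed Gas5 was -0.48 and lost its call. With the threshold set to 0.01, 443 higher and 573 lower genes were left, with 3 and 18 in the related lists. Leaving out 1 library at a time gave -0.73 to -0.50 for Gas5, -1.11 to -0.95 for Snhg1, -1.18 to -1.01 for Snhg8 and -1.56 to -1.32 for Snhg12, 2 to 7 members lower (the 7 include Meg3, which then passed the filter through its HFD counts), 460 to 1773 genes higher and 564 to 2008 lower, and 3 to 11 and 17 to 48 genes of the related lists higher and lower. These fits hold fewer mice. With all libraries, 7 members were also lower with the mitochondrial chromosome left out or without the filter, Meg3 among them. With the mitochondrial chromosome left out Meg3 again passed the filter through its HFD counts, so its call is not read as a result. The alternative that kept features without an Ensembl identifier, the counts list by list and Meg3 without a filter and a library were added after seeing the data. No paired analysis was possible because the replicate numbers of the groups, 1 to 3 and 4 to 6, are not shared. Meg3 and H19 are limited by depth, with 147 and 3 counts in all HFD libraries and 17 and 11 in all HFD+allantoin libraries.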

Other observations

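Small RNA genes annotated outside the members were mostly at 0 counts, as were the snoRNAs inside them. Of 1507 snoRNA genes, 3 had enough counts for the test. Snord104 was lower in HFD+allantoin livers (log2 fold change -2.39, SE 0.62, adjusted p = 0.0245), while Snora31 (-1.59, SE 0.75, adjusted p = 0.151) and Snora20 (0.07, SE 0.52, adjusted p = 0.938) were not called. Of 2202 miRNA genes 2039 were at 0 counts in all 6 libraries, and all 4 that were tested were lower, with summed levels over the class of 404 to 821 CPM in HFD and 247 to 287 CPM in HFD+allantoin libraries.

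Of the 41 other tested lncRNA genes that the annotation tags as hosts of small RNAs, 10 were lower and 0 higher, with a median log2 fold change of -0.63. The lower count was 5 without HFD replicate 1, 3 without HFD+allantoin replicate 4 or 6 and 2 without replicate 5.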
